A study of Mus musculus with 36 samples.

Results

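Dimethylation of lysine 36 of histone H3 (H3K36me2) was mapped by ChIP-seq in hippocampi of newborn (P0) mice, in 2 control (Ctrl) and 2 conditional knockout (cKO) libraries. The series holds 36 samples, of which 24 have a list of enriched stretches, called islands, and these 4 libraries were chosen by their title, tissue and mark. Ctrl mice were Kdm2bfl/+ or Kdm2bfl/fl, and the labels do not say which genotype stands behind which Ctrl library. The cKO mice were Kdm2bEmx1-delta-CxxC, in which Emx1-Cre removes the floxed exon of Kdm2b that encodes its CxxC zinc finger. Emx1-Cre acts in the dorsal forebrain lineage, so blood vessel cells and microglia of the same tissue keep the exon, and truncated KDM2B proteins without the zinc finger are still made in the cKO. The number of animals behind each library is not given in the sources used here. Nothing in the labels says that replicates came from separate animals, so p-values measure only the spread between these libraries.

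H3K36me2 is placed on chromatin by enzymes such as NSD1, NSD2, NSD3 and ASH1L and is removed by the JmjC demethylases KDM2A and KDM2B. It is typically found as broad, low domains over gene bodies and intergenic DNA and is scarce at CpG islands, where the CxxC zinc fingers of KDM2A and KDM2B bind unmethylated CpG dinucleotides. The long isoform of KDM2B carries the demethylase domain, whereas both isoforms carry the zinc finger and join a variant Polycomb repressive complex 1 (PRC1). The comparison of cKO with Ctrl asks where the mark sits once KDM2B has lost its CpG-binding domain.

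Whole hippocampus was used, so fewer cells carrying the mark and less of the mark per cell cannot be told apart. Islands hold no RNA level, and the labelled tissue was not checked against marker RNA here. The Kdm2b locus itself (chromosome 5) carried an island over 2.80 kb of its body in Ctrl replicate 1, over 6.60 kb of its body and 1.02 kb of its promoter in cKO replicate 2, and none in the other libraries. An island list does not show the deleted exon, so the genotype could not be checked from these files.

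There were 48300 and 40677 islands on the autosomes in Ctrl against 43047 and 31563 in cKO. Ctrl replicate 2 held the fewest reads inside them, which numbered 4492862 and 3106793 in Ctrl against 4432455 and 4500576 in cKO. The total depth of the libraries is not known from the island lists, which give no count for DNA outside islands. The lowest count of any island was 23 and 21 in Ctrl against 27 and 30 in cKO, a floor that moves with the calling of islands in each library.

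Islands were wider in both cKO libraries than in both Ctrl libraries. Their median width was 3 and 2.60 kb in Ctrl against 3.20 and 4.60 kb in cKO. The mean of these medians was 2.80 ± 0.283 kb in Ctrl and 3.90 ± 0.990 kb in cKO (SD, n = 2 libraries). The groups did not overlap, and cKO replicate 2 lay farther from the other cKO library than that library lay from Ctrl. With 2 libraries against 2, the exact two-sided permutation test gives p = 0.333 at the least, which was the value here, so no measure over whole libraries could pass a threshold of 0.05. Reads per kb of island also separated the genotypes, at 27.9 and 27.1 in Ctrl against 28.3 and 28.9 in cKO (exact permutation p = 0.333), a gap of 1.07 reads per kb between means whose SDs were 0.557 and 0.380 (n = 2 each). The part of the higher island floor in the cKO libraries in these differences was not tested.

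The autosomal length inside islands did not separate the genotypes. It was 160.9 and 114.5 Mb in Ctrl against 156.5 and 155.9 Mb in cKO (exact permutation p = 1), so the cKO values fell between the 2 Ctrl values. Without Ctrl replicate 2, the least covered library, the log2 ratio of cKO to Ctrl was -0.04, against 0.18 with all libraries.

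**Figure D1:**
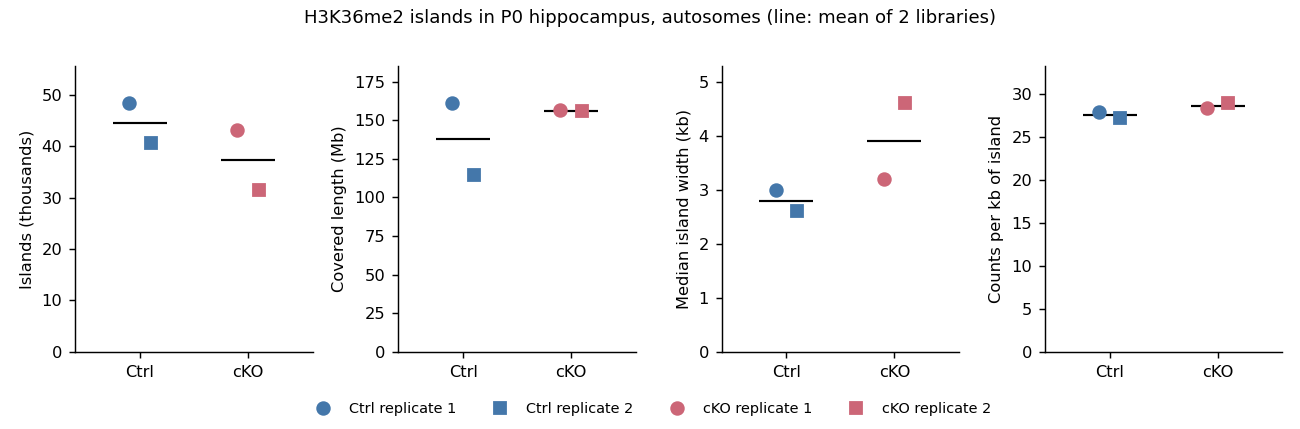
Number of islands (axis in units of 1000), autosomal length they cover (Mb), median island width (kb) and reads per kb of island in each hippocampal H3K36me2 library, with lines at the mean of 2 libraries. Median width (3 and 2.60 kb against 3.20 and 4.60 kb) and reads per kb did not overlap between Ctrl and cKO, whereas the covered lengths of cKO (156.5 and 155.9 Mb) lay between those of Ctrl.

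Places with an island differed between replicates about as much as between genotypes. The 2 Ctrl libraries shared 32.9 Mb, which was 20.5% of the covered length of replicate 1 and 28.8% of that of replicate 2. The 2 cKO libraries shared 45.0 Mb, or 28.7% and 28.8% of their lengths. Between 31.8 and 44.9 Mb were shared by a Ctrl and a cKO library, a range that takes in the value of the Ctrl pair and ends just under that of the cKO pair. Merging the islands of all 4 libraries gave 87320 regions, of which 51267 (58.7%) came from 1 library and 6447 (7.38%) were in all 4. Regions found in both cKO libraries and neither Ctrl library numbered 2661 (3.05% of all regions), and 3889 regions (4.45%) were in both Ctrl libraries and neither cKO library.

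Protein-coding genes were then divided into promoters (2 kb on each side of the transcription start site, TSS, of 20807 autosomal genes) and the remaining bodies of 19408 genes. Everything else was taken as intergenic. Promoter bases inside an island made up 1.99% and 1.44% in Ctrl against 2.57% and 2.06% in cKO, so both cKO values were above both Ctrl values by a narrow margin (means 1.71% ± 0.390 and 2.31% ± 0.364, SD, n = 2, exact permutation p = 0.333). Coverage of gene bodies was 6.15% and 4.45% in Ctrl against 6.63% and 6.45% in cKO, again without overlap and with the same p. The log2 ratio of gene body coverage was 0.30, and it was 0.09 without Ctrl replicate 2 and 0.11 at equal covered length. Intergenic coverage was 7.37% and 5.19% in Ctrl against 6.69% and 6.80% in cKO, where the groups overlapped (exact permutation p = 1).

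More of the island length lay in gene bodies, and less in intergenic DNA, in both cKO libraries than in both Ctrl libraries. Of all island bases, 36.2% and 36.9% lay in gene bodies in Ctrl against 40.2% and 39.2% in cKO (means 36.6% ± 0.448 and 39.7% ± 0.681, SD, n = 2). The intergenic share was 62.8% and 62.1% in Ctrl against 58.6% and 59.8% in cKO. Both gaps between the means were larger than the gaps between replicates, and p could not fall below 0.333 (exact permutation). Equalising the covered length of the libraries by keeping the densest islands left the gene body share higher in cKO (log2 ratio 0.11, against 0.12). Coverage of intergenic DNA then turned from 0.10 to -0.07 on the log2 scale.

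Promoters rich in CpG (GC content over 50%, and over 0.6 of the CpG number that the base content predicts, in the 1 kb around the start) carried little of the mark in any library. These 9506 promoters were covered over 0.436% and 0.353% of their bases in Ctrl against 0.768% and 0.540% in cKO. The remaining 11301 promoters were covered over 3.21% and 2.29% in Ctrl against 4% and 3.26% in cKO. Both classes were higher in both cKO libraries, the first by 0.73 and the second by 0.40 on the log2 scale (exact permutation p = 0.333 for each). CpG-rich promoters thus remained the least covered compartment in the cKO. Without cKO replicate 1 the log2 ratio was 0.46 at CpG-rich and 0.24 at other promoters, and it was 0.27 over all promoters against 0.44 with all libraries. Without Ctrl replicate 2 it was 0.59 at CpG-rich promoters, 0.18 at other promoters and 0.22 over all promoters. At equal covered length it was 0.54 at CpG-rich promoters, 0.23 at other promoters and 0.26 over all promoters.

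**Figure D2:**
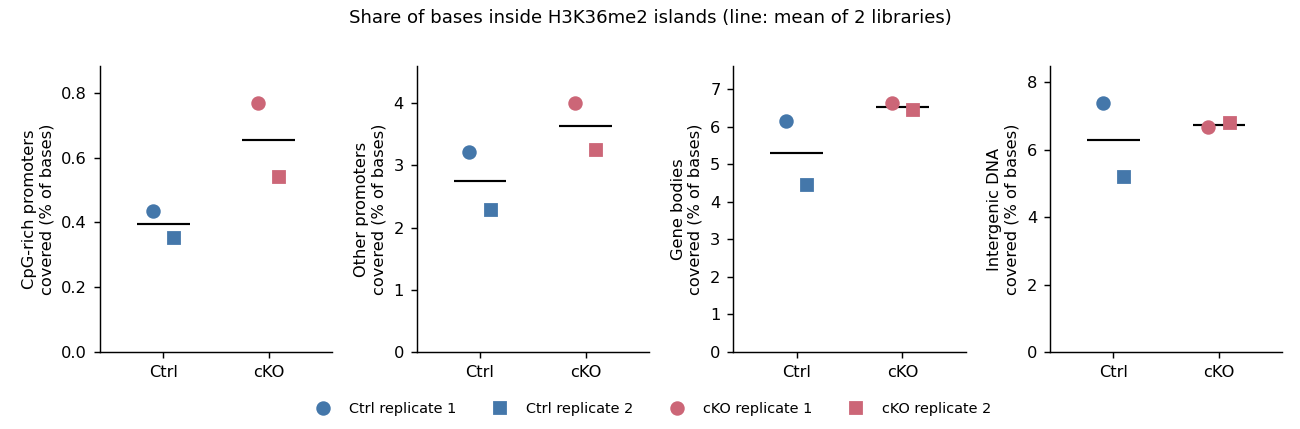
Percent of bases inside H3K36me2 islands at CpG-rich promoters, other promoters, gene bodies and intergenic DNA in each library, with lines at the mean of 2 libraries. Coverage is below 1% at CpG-rich promoters in all 4 libraries, both cKO libraries lie above both Ctrl libraries in the first 3 panels, and intergenic DNA overlaps (7.37% and 5.19% against 6.69% and 6.80%).

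Around the starts of 9678 genes of at least 20 kb the islands formed a trough. Within 1 kb of the TSS, islands covered 1.57% and 1.18% of the bases in Ctrl against 1.92% and 1.87% in cKO. At 10 to 20 kb upstream the values were 5.91% and 4.28% in Ctrl against 6.77% and 6.10% in cKO. Coverage at the start was thus 0.266 and 0.275 of that upstream in Ctrl against 0.284 and 0.307 in cKO. At 10 to 20 kb inside the gene it was 0.878 and 0.870 of the upstream value in Ctrl against 0.967 and 0.948 in cKO. The trough was kept in the cKO, and the arm inside the gene stood closer to the upstream arm there. In cultured neurospheres from the same genotypes the inside arm was above the upstream arm in all 4 libraries (ratios of 1.17 to 1.25).

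**Figure D3:**
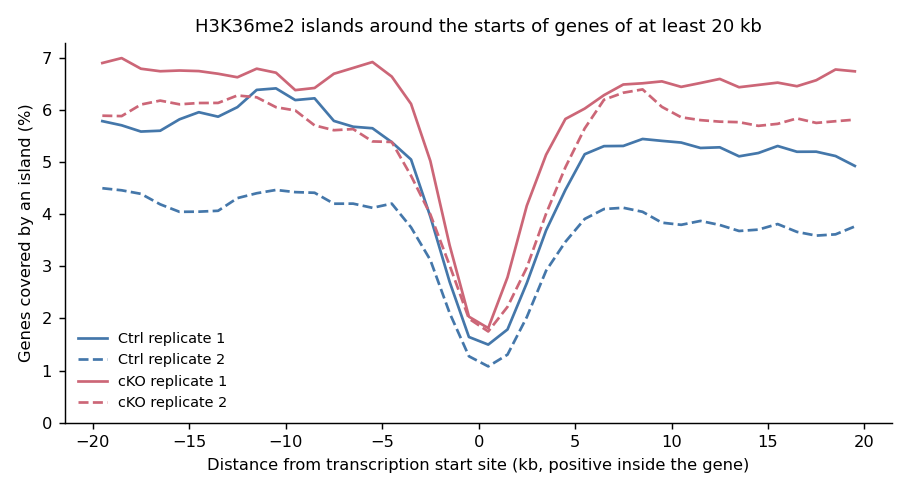
Percent of bases inside an H3K36me2 island at each distance (kb) from the TSS, over 9678 genes of at least 20 kb, 1 line per library. The axis label reads genes covered, but the values are shares of bases in bins of 1 kb. Coverage falls from 4.28% to 6.77% at 10 to 20 kb upstream to between 1.18% and 1.92% within 1 kb of the start in Ctrl and cKO alike, and Ctrl replicate 2 lies lowest throughout.

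Long genes held an island in their body more often than short genes. Genes were divided by length into 4 classes of equal size. In the shortest class (median gene length 5.06 kb), 2.93% and 2.23% had an island in Ctrl against 4.39% and 2.66% in cKO. In the longest class (median 98.2 kb), the shares were 58.9% and 58.3% in Ctrl against 62.2% and 55.5% in cKO. The genotypes overlapped in both classes. The share of bases covered was 1.14% to 2.45% over the libraries in the shortest class and 4.98% to 7.20% in the longest.

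Counting genes by whether an island touched them gave few that separated the genotypes. Promoters held an island in 1023 and 825 genes in Ctrl and in 1355 and 955 genes in cKO. An island was present in both cKO libraries and neither Ctrl library, here called gained, at 130 of 20807 promoters (0.625%), and in both Ctrl libraries and neither cKO library, here called lost, at 76 promoters (0.365%). Replicates of a genotype differed at 1284 promoters in Ctrl and 1578 in cKO. That pattern takes in the 1786 promoters with an island in 1 library only, so it is met more easily than a gain or a loss. Of the 616 promoters with an island in exactly 2 libraries, 130 were gained and 76 lost. The rest had an island in 1 library of each genotype.

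Bodies held an island in 4388 and 4232 genes in Ctrl and in 4951 and 4056 in cKO. Of 19408 bodies, 236 (1.22%) were gained and 192 (0.989%) were lost, while 2420 held an island in all 4 libraries. Replicates differed at 2290 bodies in Ctrl and 2515 in cKO. Of the 1233 bodies with an island in exactly 2 libraries, 236 were gained and 192 lost, and the rest had 1 library of each genotype. At equal covered length, 181 bodies were gained and 246 lost, so which count was larger changed with the covered length of the libraries. At that setting 76 promoters were gained and 68 lost. The gained and lost counts were not tested.

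**Figure D4:**
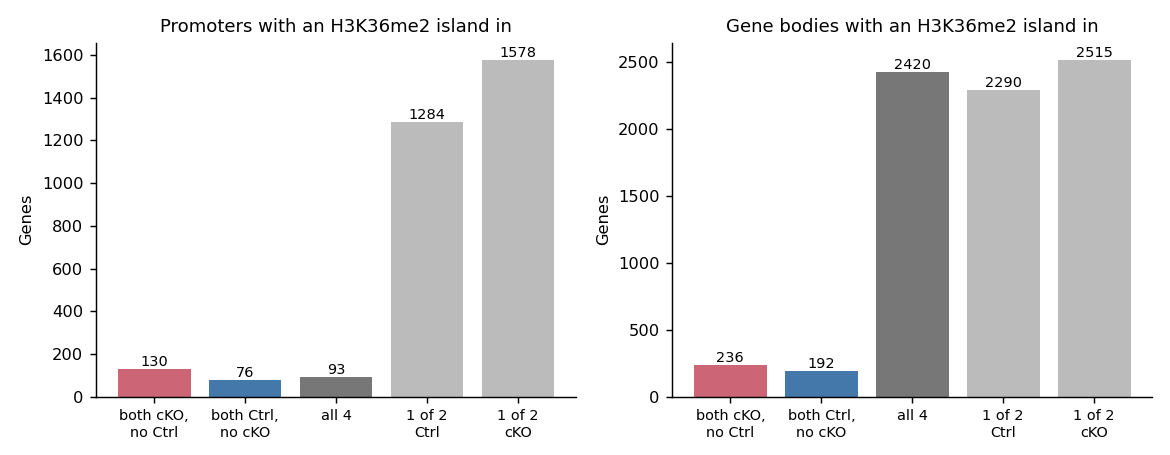
Number of promoters (left) and gene bodies (right) with an H3K36me2 island in both cKO and no Ctrl library, in both Ctrl and no cKO library, in all 4 libraries, and in 1 of the 2 Ctrl or cKO libraries. Gained (130 and 236) and lost (76 and 192) genes meet a pattern over all 4 libraries. Those at which replicates differed (1284 to 2515) meet a looser pattern over 2 libraries, so these counts are not like for like.

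The promoter sequences of the 2 gained and the 2 lost genes with the longest promoter islands are shown because the zinc finger that the cKO lacks reads CpG dinucleotides. The windows run from 250 bases before to 50 bases after the RefSeq start (GRCm38.p6, the mm10 assembly), 5′ to 3′ on the gene's strand. Capitals mark CG, a motif that reads the same on both strands.
Gabrr2 (chr4:33062862-33063161, + strand): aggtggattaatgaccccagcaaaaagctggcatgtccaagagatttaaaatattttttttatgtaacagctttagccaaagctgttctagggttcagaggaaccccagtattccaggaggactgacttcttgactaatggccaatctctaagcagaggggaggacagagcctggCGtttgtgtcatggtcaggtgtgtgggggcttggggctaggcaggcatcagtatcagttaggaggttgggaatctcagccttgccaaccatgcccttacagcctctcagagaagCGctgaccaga
Arhgef10l (chr4:140665856-140666155, - strand): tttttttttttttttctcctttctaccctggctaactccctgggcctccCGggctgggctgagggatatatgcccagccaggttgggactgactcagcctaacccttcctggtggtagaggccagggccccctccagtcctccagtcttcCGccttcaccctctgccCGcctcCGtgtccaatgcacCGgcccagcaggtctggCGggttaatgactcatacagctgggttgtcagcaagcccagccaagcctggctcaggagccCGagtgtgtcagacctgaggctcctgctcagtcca
Angpt4 (chr2:151910957-151911256, + strand): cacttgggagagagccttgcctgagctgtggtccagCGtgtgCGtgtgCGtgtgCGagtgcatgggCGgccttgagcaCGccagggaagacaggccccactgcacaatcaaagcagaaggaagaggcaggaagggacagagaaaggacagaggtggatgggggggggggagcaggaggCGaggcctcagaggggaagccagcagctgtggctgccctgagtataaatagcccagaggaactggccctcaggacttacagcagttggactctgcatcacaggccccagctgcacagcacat
Spesp1 (chr9:62282130-62282429, - strand): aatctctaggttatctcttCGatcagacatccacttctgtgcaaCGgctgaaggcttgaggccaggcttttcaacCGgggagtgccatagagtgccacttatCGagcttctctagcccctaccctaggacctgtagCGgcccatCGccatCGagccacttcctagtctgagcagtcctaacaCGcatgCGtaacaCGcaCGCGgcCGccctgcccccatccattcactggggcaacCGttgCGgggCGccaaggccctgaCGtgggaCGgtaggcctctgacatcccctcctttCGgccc
The windows of Gabrr2 and Arhgef10l lay wholly inside an island in both cKO libraries and outside islands in both Ctrl libraries, and the reverse held for Angpt4 and Spesp1. They held 2 CG in Gabrr2, 7 in Arhgef10l, 7 in Angpt4 and 19 in Spesp1. Over 32817 RefSeq promoter windows of the same length, 94.6% held at least 1 CG and the median was 7, so only Spesp1 stood above the median. None of the 4 was CpG-rich by the rule on 1 kb.

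Among gained promoters, that of Gabrr2 (ENSMUSG00000023267.10, chr4:33062999-33095865), a subunit of GABA receptors, was covered over 4 and 3.8 kb of its 4 kb in cKO. Arhgef10l (ENSMUSG00000040964.16, chr4:140514485-140666012) had 4 and 3.79 kb covered in cKO. The other 8 of the 10 longest were Crybb1 (a lens crystallin), Tmem72, Sit1 (a lymphocyte adaptor), Tmem173 (the innate immune sensor STING), Enpp7, Cdhr5, Slc17a4 and Slc10a5, with between 2.75 and 4 kb covered in a cKO library and 0 in either Ctrl library. None of these 10 promoters was CpG-rich. Some of the bodies held islands in Ctrl, that of Gabrr2 in replicate 1, that of Tmem72 in replicate 2 and that of Arhgef10l in both. In neurospheres the promoters of Gabrr2, Tmem173 and Slc17a4 held an island in all 4 libraries, of both genotypes.

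Lost promoters were led by Angpt4 (ENSMUSG00000027460.7, chr2:151911210-151945337), an angiopoietin, with 3.39 and 3 kb covered in Ctrl and 0 in both cKO libraries. Spesp1 (ENSMUSG00000046846.4, chr9:62270729-62282208), a sperm protein, had 2.79 and 3.19 kb in Ctrl, although cKO replicate 2 had 4.67 kb in its body. Spi1, which encodes the myeloid transcription factor PU.1, had 3 and 2.4 kb in Ctrl and 0 in cKO, and was the 1 promoter lost among 13 microglial genes (0.365% of all promoters were lost), although cKO replicate 1 had 2.4 kb in its body. The rest of the 10 longest were Prl (prolactin), 1700016C15Rik, Naa11, Allc, Tmprss6, Lpin3 and Spata31d1a. The bodies of Angpt4, Allc and Lpin3 held islands in both cKO libraries, and those of 1700016C15Rik and Tmprss6 in cKO replicate 1. Prl, Naa11 and Spata31d1a held no body island in cKO. Naa11 alone among the 10 had a CpG-rich promoter.

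Over the whole gained and lost sets the share of CpG-rich promoters was low. It was 26.9% of gained promoters, 17.1% of lost promoters and 5.38% of the 93 promoters with an island in all 4 libraries, against 45.7% of all promoters. In Ctrl neurospheres 49.2% and 47.7% of gained and 60.5% and 65.8% of lost promoters held an island, compared with 21.0% and 19.6% of all promoters. Neurosphere islands were thus more frequent at both sets than at promoters as a whole, as they were at the promoters with an island in all 4 hippocampal libraries (75.3% in each Ctrl neurosphere library). Of the 130 gained promoters, 5 (3.85%) were also gained in neurospheres and 1 was lost there, against 1.47% and 0.774% of all promoters. Of the 76 lost, 2 were lost in neurospheres and 1 was gained.

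The 10 longest gains in gene bodies included Bcl11b, Plxnd1, Hk1 and Hk3. Bcl11b (ENSMUSG00000048251.15, chr12:107910403-108003602), which encodes CTIP2, a transcription factor of hippocampal pyramidal and deep-layer cortical neurons, had islands over 7.40 and 13.8 kb of its body in cKO and none in Ctrl. Plxnd1, a semaphorin receptor, had 8 and 12 kb in cKO. Hk1, the hexokinase of brain, had 10.8 and 7.20 kb in cKO, and its paralogue Hk3 had 7.40 and 6.99 kb. These 4 bodies had no island in either Ctrl hippocampal library, but each carried one in Ctrl neurosphere replicate 1 and in cKO neurosphere replicate 1.

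The longest gain was at Cfap99, a gene of cilia and flagella, with 16.4 and 9.20 kb. It was followed by Iqgap3, Nme7, Pde1a, Pxmp4 and Sned1 with between 6.60 and 13.4 kb in a cKO library. Lost bodies were led by Arhgap12, with 7 and 6.80 kb in Ctrl, and by Glis2, a zinc finger transcription factor, with 6 kb in each Ctrl library. Ifit1bl1, Sft2d2, Lactb2, Lman1l, Phactr3, Tfec, Trpm6 and Capn13 made up the rest of the 10, with between 4.80 and 13.4 kb in a Ctrl library. Of all 236 gained bodies none was gained in neurospheres, and 4 were lost there. Of the 192 lost bodies 1 was lost in neurospheres and 3 were gained there. Of all bodies, 1.04% were gained and 0.484% lost in neurospheres.

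Read counts inside islands were next compared gene by gene. For each gene, from 2 kb before its start to its end, the reads of overlapping islands were summed in proportion to the overlap, and 2540 genes with an island in all 4 libraries were tested with edgeR's quasi-likelihood test and Benjamini-Hochberg adjustment. Reads in islands fell at Lsamp, Btbd3, Esrrg, Grid1 and Nrxn3 and rose at Galnt17 and Ralgps1. At an adjusted p under 0.05, 7 genes (0.276% of those tested) passed, 5 lower and 2 higher in cKO (0.197% and 0.0787%). At an unadjusted p under 0.05 there were 168 genes (6.61%), 76 higher (2.99%) and 92 lower (3.62%). The median log2 fold change of all genes tested was 0.00.

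Lsamp (ENSMUSG00000061080.11, chr16:39984361-42181679) encodes the limbic system-associated membrane protein, an adhesion molecule of the IgLON family. Its islands held 1339 and 950 reads in Ctrl against 377 and 86 in cKO. Reads were lower in both cKO libraries, by 2.66 on the log2 scale (log2 fold change -2.66, SE 0.47, 6.30-fold lower, edgeR adjusted p = 4.76e-05). The covered length was 50.2 and 35.8 kb in Ctrl against 15.2 and 2.80 kb in cKO. The 21 and 16 islands of Ctrl became 4 and 1 in cKO, yet 40 of the 41 merged regions in the gene came from 1 library, and the 2 Ctrl libraries shared no region.

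Btbd3 (ENSMUSG00000062098.11, chr2:138256565-138589292), a BTB domain protein that orients dendrites, held 1221 and 388 reads in Ctrl against 111 and 84 in cKO. The groups were separated, with a log2 fold change of -3.32 (SE 0.66, adjusted p = 0.000573 by edgeR). A region of 5.60 kb inside the gene (chr2:138291201-138296800, 37.4 kb downstream of the start and free of annotated exons) held 136 and 61 reads in Ctrl and no island in cKO. Of its 16 merged regions, 12 came from 1 library and 1 was in all 4.

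Esrrg (ENSMUSG00000026610.13, chr1:187608791-188214885), an orphan nuclear receptor, had 1482 and 1153 reads in Ctrl against 663 and 478 in cKO (log2 fold change -1.58, SE 0.39, edgeR adjusted p = 0.026). The widest region found in both Ctrl libraries alone was free of annotated exons, at chr1:187741801-187746800 with 82 and 105 reads in Ctrl and no island in cKO. Its 34 merged regions included 5 that were lost and 0 that were gained.

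Grid1 and Nrxn3 encode synaptic organisers, the delta-1 glutamate receptor and the presynaptic adhesion protein neurexin 3. In Grid1 (ENSMUSG00000041078.7, chr14:34820108-35583379) the counts were 2772 and 1951 in Ctrl against 1489 and 1137 in cKO (log2 fold change -1.21, SE 0.30, edgeR adjusted p = 0.026). Its widest lost region was chr14:35357601-35366000, 542 kb downstream of the start, with 226 and 71 reads in Ctrl. In Nrxn3 (ENSMUSG00000066392.11, chr12:88722876-90334935) the counts were 3025 and 1736 in Ctrl against 1332 and 1369 in cKO (log2 fold change -1.16, SE 0.30, edgeR adjusted p = 0.0424). In both genes all cKO counts lay below all Ctrl counts. These counts are not scaled for the reads in islands, of which Ctrl replicate 2 held 3106793 and Ctrl replicate 1 held 4492862. Unscaled, the Ctrl counts lay farther from each other than the lower of them lay from either cKO count. The test scaled the libraries, so this gap does not measure the spread that it used.

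Galnt17 (ENSMUSG00000034040.16, chr5:130872082-131308497), a member of the polypeptide N-acetylgalactosaminyltransferase family, rose from 576 and 443 reads in Ctrl to 1723 and 1967 in cKO (log2 fold change 1.48, SE 0.37, edgeR adjusted p = 0.026). Its islands covered 21.0 and 17.4 kb in Ctrl against 65.4 and 68.7 kb in cKO, and replicates lay close together in both genotypes. In neurospheres it had an island in 1 of 4 libraries only, over 3.60 kb in cKO replicate 1.

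Ralgps1 (ENSMUSG00000038831.16, chr2:33133417-33371486), an exchange factor for the Ral GTPases, had 81 and 101 reads in Ctrl against 669 and 1001 in cKO (log2 fold change 2.76, SE 0.68, edgeR adjusted p = 0.026). One island was present in each Ctrl library and 7 in each cKO library. The counted stretch overlaps Garnl3 and Angptl2, and its reads cannot be assigned to 1 of the 3 genes. The other 6 genes overlapped no other protein-coding gene.

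**Figure D5:**
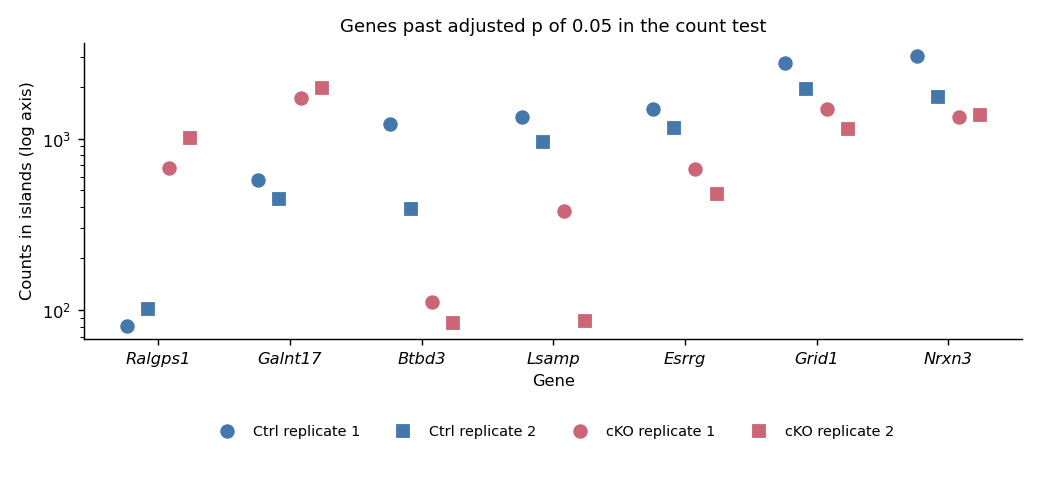
Reads inside islands of the 7 genes with an adjusted p under 0.05, on a log axis, 1 point per library. Ctrl lies above cKO in Lsamp (1339 and 950 against 377 and 86), Btbd3, Esrrg, Grid1 and Nrxn3, and below it in Galnt17 (576 and 443 against 1723 and 1967) and Ralgps1.

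In the 7 genes the covered length also separated Ctrl from cKO, but none passed the limma test of covered length. Their reads per kb of island stayed between 24.8 and 30.8 in every library, and none passed the limma test of density (lowest unadjusted p = 0.0555, Btbd3). Density was taken only inside called islands, so it cannot show a fall that leaves a stretch without an island. Over all 2540 genes, density passed for 0 genes at an adjusted p under 0.05 by limma, with 132 (5.20%) at an unadjusted p under 0.05, 63 higher (2.48%) and 69 lower (2.72%) in cKO. Without centring each library on its median, 140 were higher and 26 lower. Covered length was tested with limma on log2(bp + 200) over 4159 genes with a mean of at least 2 kb, and 0 passed, with 283 genes (6.80%) at an unadjusted p under 0.05. Of these 283, 223 were longer (5.36%) and 60 shorter (1.44%) in cKO, on a median log2 change of 0.36 over all genes, and after centring each library on its median the numbers were 57 and 139 on a median of -0.04. In simulated data with the spread of these libraries the length test found 0% of 200 genes changed 4-fold, and the count test 40.5%, so changes of that size could be missed.

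The calls depended on single libraries. Leaving out Ctrl replicate 1 gave 1 call (1 higher, 0 lower), cKO replicate 1 gave 12 (0 higher, 12 lower) and cKO replicate 2 gave 17 (1 higher, 16 lower). The 7 genes kept their direction in each alternative run. Their adjusted p without Ctrl replicate 1 was 0.0666 for Lsamp, 0.342 for Btbd3, 0.205 for Esrrg, 0.247 for Grid1, 0.501 for Nrxn3, 0.237 for Galnt17 and 0.266 for Ralgps1 by edgeR, so none of the 7 passed and the single call was another gene.

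Base composition moved with the fold changes. Over 4 classes of tested genes by GC content, the median log2 fold change went from -0.18 in the lowest class (median 40.5%) through -0.03 and 0.06 to 0.19 in the highest class (median 49.9%), and Spearman's correlation was 0.22 over 2540 genes, given as a description since genes share the same 4 libraries. The GC content was 37.8% in Lsamp, 39.3% in Nrxn3 and 40.8% in Btbd3, and 49.3% in Ralgps1, around a median of 44.9%. With a correction for GC content, chosen after the data were seen, 5 genes passed (1 higher, 4 lower), and Nrxn3 (log2 fold change -0.93, edgeR adjusted p = 0.167) and Ralgps1 (2.62, edgeR adjusted p = 0.0552) did not. The island bases themselves were 44.7% and 44.8% GC in Ctrl against 45.5% and 44.6% in cKO.

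The 3 next genes on the higher side did not pass the threshold. They were Reck, an inhibitor of matrix metalloproteinases that also takes part in Wnt7 signalling, with 0.271 and 0.871 kb covered in Ctrl against 4.47 and 6 kb in cKO (edgeR adjusted p = 0.121), Btbd11 with 157 and 115 reads against 624 and 1019 (edgeR adjusted p = 0.122), and Ksr2, a scaffold of the Ras and MAP kinase pathway, with 298 and 107 against 1005 and 900 (edgeR adjusted p = 0.127). Their groups did not overlap. The fold change of Reck depended on how islands that reach past the gene were counted, since counting every overlapping island whole gave a log2 fold change of 0.74 against 2.75.

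The same count test on the 6447 merged regions present in all 4 libraries called 0 regions by edgeR (318 or 4.93% at an unadjusted p under 0.05, 169 higher and 149 lower) and 17 by DESeq2's Wald test (9 higher, 8 lower). No region was thus called by both tools.

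The longest covered genes were very long gene models in both genotypes. Macrod2 was covered over 246.0 and 179.0 kb in Ctrl against 161.8 and 270.8 kb in cKO, and Cdkal1 over 209 and 140 kb in Ctrl against 174 and 216 kb in cKO, which was 21.1% to 32.6% of its body over the libraries. Fhit, Nckap5, Pard3b and Agbl1 were covered over 111 to 221 kb in every library. A further 3 of the longest covered models, Gm20388, Fgfr2 and Gm37240, span 73, 30 and 7 further protein-coding genes in the annotation, and their coverage belongs to those genes too.

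The synaptic adhesion and long neuronal genes, 25 genes with a median length of 1223 kb, were the most covered of the lists examined. Their bodies held an island in all 4 libraries in 23 of 25 genes and in at least 24 of 25 in each library, with summed lengths of 1855 and 1357 kb in Ctrl against 1435 and 1713 kb in cKO. Of 23 tested, 2 fell (Lsamp and Nrxn3) and 0 rose, beside 0.276% called among all genes tested. At an unadjusted p under 0.05, 5 were lower and 0 higher, among them Ptprd and Fhit, beside 3.62% lower and 2.99% higher of all genes tested. The median log2 fold change of the 23 was -0.25 beside 0.00 for all genes tested. The median GC content of all 25 members, tested or not, was 38.8%. That lies in the lowest class of tested genes by GC content, whose median fold change was -0.18. Fold changes also fell with gene length, from a median of 0.09 in the shortest of 4 classes of tested genes to -0.10 in the longest (median 371 kb). The part of base composition and of gene length in this difference was not tested for the list, which was chosen with earlier results of these data known. Ntm, an IgLON relative of Lsamp, had 20.2 and 16.2 kb in Ctrl against 0 and 4 kb in cKO and could not be tested, having no island in cKO replicate 1. Opcml, another relative, had 62.6 and 62.8 kb in Ctrl against 65.2 and 77.2 kb in cKO.

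Wnt pathway genes carried promoter islands about as rarely as all genes. Of 48 members, 43 had no promoter island in any library, beside 18056 of all 20807 genes, and 0 promoters were gained or lost, beside 0.625% and 0.365% of all promoters. The ligand genes Wnt6 and Wnt10a and the secreted modulator Sfrp2 had no island at promoter or body in any of the 4 libraries. Among the ligands, Wnt7b had islands over 16.4 and 4 kb of its body in Ctrl against 13.6 and 18.4 kb in cKO, and Wnt3 had 2.80 kb in cKO replicate 1 only. The genotypes overlapped in both genes.

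Bodies were gained at Rspo1, an agonist of Wnt signalling, with 2.80 and 3.20 kb in cKO, and at the ligand gene Wnt9b, with 5.84 and 3.24 kb. The body of Fzd3, a receptor, was lost, from 1.80 and 2.80 kb in Ctrl. These 2 gains and 1 loss among 48 members stand beside 1.22% gained and 0.989% lost of all bodies. Of 10 Wnt genes tested for counts 0 passed, beside 0.276% of all genes tested. Tcf7l1, a transcriptional effector, had 43.8 and 27.8 kb covered in Ctrl against 71 and 79.4 kb in cKO, with a log2 fold change of 0.83 (SE 0.32, edgeR adjusted p = 0.428). Lef1, another effector, had 10.4 and 5.00 kb in Ctrl against 3.8 and 4 kb in cKO (log2 fold change -1.44, SE 0.85, edgeR adjusted p = 0.827). The median log2 fold change of the 10 was 0.54, beside 0.00 for all genes tested, and 1 of the 10 was below 0, beside 1266 of all 2540. The median GC content of all 48 members, tested or not, was 50.2%. That lies in the highest class of tested genes by GC content, whose median log2 fold change was 0.19. The part of base composition in this difference was not tested for the list.

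Genes of the enzymes of the mark and of Polycomb subunits gave few values to compare. Among 15 writers and erasers of H3K36 methylation, 0 had body islands in all 4 libraries and 0 could be tested, beside 2420 of all 19408 bodies with an island in all 4. The body of Kdm4b, a demethylase, was lost, from 5.20 and 3.40 kb in Ctrl. Of 29 autosomal PRC1 and PRC2 genes, the body of Aebp2, a PRC2 cofactor, was gained (2.20 and 4.20 kb in cKO) and that of Yaf2, a PRC1 subunit, was lost (4 and 2.20 kb in Ctrl), beside 1.22% gained and 0.989% lost of all bodies. Bodies of 3 of the 29 held an island in all 4 libraries. The 3 Polycomb genes tested, Phc2, Usp7 and Pcgf5, did not pass. Among 10 genes of DNA methylation, Dnmt3a was the 1 tested, with 3.8 and 1.40 kb in Ctrl against 1.79 and 15.2 kb in cKO (log2 fold change 1.39, SE 0.84, edgeR adjusted p = 0.846). Tet1, which oxidises methylcytosine, had 8.8 and 2.2 kb in Ctrl against 7.2 and 0 kb in cKO.

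Gains and losses at genes that mark hippocampal cell types were counted beside the 1.22% of all bodies gained and 0.989% lost. Of 20 neural progenitor genes, 15 had no body island in any library, including Pax6 and Eomes, and Notch1 had promoter islands in all 4 libraries (4 and 1.2 kb in Ctrl, 3 and 4 kb in cKO). Of 24 dentate and pyramidal neuron genes, the body of Bcl11b was gained and that of Meis2 was lost (5.80 and 2.20 kb in Ctrl), while Neurod1 had no island. Of 11 glial genes, the bodies of the astrocyte genes Gja1 (10.7 and 4.40 kb in cKO) and Aqp4 (2.58 and 4 kb in cKO) were gained, although the promoter of Aqp4 had 1.18 kb in Ctrl replicate 1. Of 13 interneuron, 13 vascular and 14 housekeeping genes none was gained or lost, and of these the vascular genes Erg and Pecam1 were covered over 19 to 46.8 kb in every library. The interneuron gene Erbb4, a neuregulin receptor, had 2.8 and 4.8 kb in Ctrl against 0 and 5.2 kb in cKO, and Gad1, which makes GABA, had 4.33 kb in cKO replicate 1 only. Of the housekeeping genes, the translation factor gene Eef1a1 had promoter islands in all 4 libraries (0.75 and 0.75 kb in Ctrl against 2.15 and 1.45 kb in cKO) and Ywhaz had 3.73 kb in cKO replicate 2 only. Notch2 was covered over 4.8 to 17 kb and overlapped between genotypes. None of the 20 tested members of the progenitor, neuron, glial, microglial, vascular and housekeeping lists passed, beside 0.276% of all genes tested.

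Cultured neurospheres, grown from hippocampal progenitors of the same genotypes, held 10569166 to 21946455 reads in islands, more than any hippocampal library. Among them cKO replicate 1 stood apart, with 23.4% of promoter bases inside islands against 4.37% to 11.2% in the other 3. The difference of the cKO effect between hippocampus and neurospheres was tested with edgeR in 2074 genes with an island in all 8 libraries. It passed for 0 genes (89 or 4.29% at an unadjusted p under 0.05, with a higher effect in hippocampus for 26 or 1.25% and a lower one for 63 or 3.04%) and for 0 with DESeq2's Wald test. Without neurosphere cKO replicate 1 it passed for 231 genes (122 with a higher and 109 with a lower effect in hippocampus), so this count rests on that library, and the single remaining cKO neurosphere library is then assumed to vary like the other groups.

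Of the 7 called genes, 6 entered that test, and none passed (adjusted p = 0.926 by edgeR for each). Their unadjusted p ran from 0.00322 (Ralgps1) to 0.0866 (Nrxn3) by edgeR, and these genes had been chosen by their change in hippocampus. In simulated data with the spread of these libraries, the test found 7.5% of 200 genes changed 4-fold. Its null result therefore cannot show that the cKO effect was alike in hippocampus and neurospheres. Lsamp, with 1339 and 950 reads in Ctrl against 377 and 86 in cKO hippocampus, held 5931 and 7765 reads in Ctrl against 6646 and 20355 in cKO neurospheres, so the cKO values overlapped those of Ctrl there. Ralgps1 held 12031 and 6908 reads in Ctrl against 11134 and 2549 in cKO neurospheres, with overlapping groups.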

How the data were processed

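H3K36me2 ChIP-seq libraries of P0 hippocampus (Ctrl and cKO, 2 each) were used, with neurosphere libraries and the other marks of hippocampus for comparison. Chromatin was digested with micrococcal nuclease and sonicated. The authors trimmed reads with cutadapt, aligned them to mm10 with Bowtie2 2.4.5, removed duplicates with samtools and called islands in windows of 200 bp with SICER (version not given in the sources used here) against input DNA, each library by itself. The deposited values are whole read counts per island, not normalized. Only autosomes were used. Overlaps were computed with protein-coding genes of GENCODE (mm10). Counts were tested with edgeR 4.0.16 (TMM, quasi-likelihood) and, as an alternative, DESeq2 1.42.0. Density and covered length were tested with limma 3.58.1, and library values with exact permutation tests. Scripts were tested on simulated data.

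Named genes were those with an adjusted p under 0.05 (up to 10 in each direction), the 5 of lowest p in each direction, the 10 gained and 10 lost promoters and bodies with the longest islands in the less covered library, the 10 longest covered genes, Kdm2b, and, of each of 12 gene lists, the gained or lost members or, failing these, the 2 longest covered. Opcml, Ntm, Ptprd, Wnt7b, Wnt3, Wnt6, Wnt10a, Sfrp2, Tcf7l1, Lef1, Pax6, Eomes, Neurod1 and the tested Polycomb genes were named after their values were seen. Members and lists were chosen with earlier results of these data known. Some genes that the rule names are not reported here. Samples were grouped by their titles.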

Additional observations from a re-analysis of the deposited data

Results flagged for a closer look

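Reads per kb of island moved in opposite directions in the 2 sources. They were 27.9 and 27.1 in Ctrl against 28.3 and 28.9 in cKO hippocampus, and 55.5 and 45.9 in Ctrl against 44.3 and 30.3 in cKO neurospheres, with no overlap in either. The log2 effect in hippocampus minus that in neurospheres was 0.517 (exact permutation within each source over 36 splits, two-sided p = 0.0556, the smallest this design can give).

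The 90th percentile of island width did the same, at 5.20 and 4.40 kb in Ctrl against 5.80 and 7.60 kb in cKO hippocampus, and 7.20 and 8.20 kb in Ctrl against 6.80 and 7 kb in cKO neurospheres. The difference of the log2 effects was 0.628 (exact permutation, two-sided p = 0.0556). These 2 were the measures of 18 in which all libraries of the 2 sources moved in opposite directions. That pattern always gives this smallest p, so the p-values add nothing to it. Neither measure passed a threshold of 0.05. The part of depth and of island calling in either was not tested.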

How the results depend on the processing

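Over 44 alternatives of the library measures in the design, 41 kept their direction. The log2 ratio of covered length was 0.18 and became -0.043 without Ctrl replicate 2 (range over the left-out libraries -0.043 to 0.448). For intergenic coverage the log2 ratio of 0.10 became -0.071 at equal covered length and ranged from -0.129 to 0.377 over the left-out libraries. Gained and lost counts were lower with a promoter of 1 kb on each side (75 and 40 promoters), with an overlap of at least 1 kb (75 and 41 promoters) and, for gained promoters, at equal covered length (76). Leaving out 1 library, which asks for 1 library of a genotype in place of 2, gave 183 to 820 gained and 116 to 494 lost promoters, and 478 to 1008 gained and 356 to 652 lost bodies.

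For counts per gene, where 7 passed, DESeq2's Wald test called 14 (5 higher, 9 lower), and leaving out 1 library gave 1 to 17 (1 without Ctrl replicate 1, 5 without Ctrl replicate 2, 12 without cKO replicate 1 and 17 without cKO replicate 2). Where a genotype keeps 1 library, it is assumed to vary like the other. The GC correction, chosen after the data were seen, called 5. DESeq2's Wald test called 17 regions, where edgeR called 0. With a mean covered length of at least 10 kb, 1481 genes were tested and 1 (Lsamp) passed the length test (limma adjusted p = 0.0064). There the limma model was fitted to these genes alone, so its estimates of spread could change as well as the adjustment. Without neurosphere cKO replicate 1 the difference between sources passed for 231 genes, and it passed for 0 without each of the other 7 libraries. The cause of these changes was not tested.

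Deviations of same-numbered libraries correlated by 0.032 over genes, so they shared little in island reads. This value cannot tell whether same-numbered libraries were prepared together, and nothing in the labels says that the numbers pair samples. With the replicate block, 4 genes (1 higher, 3 lower) passed in place of 7, Galnt17, Grid1 and Nrxn3 being above the threshold (adjusted p = 0.0533, 0.0688 and 0.0976 by edgeR), and 0 passed in the region, density, length and source tests with the block as without it. Of 100 alternatives for the 10 genes of the count test (10 for each gene), 0 changed direction. For the 7 genes called in the main run, 22 alternatives fell short of the threshold. The remaining genes were not past it in the main run, and 2 of their alternatives passed it (Btbd11 and Ksr2 with DESeq2). The use of 2 libraries per genotype, unknown depth outside islands and coverage that replicates share by under 30% bound what can be detected.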

Other observations

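Exons made up a smaller part of island bases than of gene DNA in all 4 libraries. Annotated exons make up 9.33% of the DNA of protein-coding genes, and they made up 3.51% and 3.64% of the island bases in genes in Ctrl against 4.31% and 3.58% in cKO, where the groups overlapped. The shares were not matched for gene length or distance from the TSS, with which island coverage also varied.

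Islands of the Polycomb marks of hippocampus were counted at gained and lost promoters. H2AK119ub1 islands touched 7.69% and 27.7% of the 130 gained promoters in Ctrl against 6.15% and 43.1% in cKO, and 7.89% and 22.4% of the 76 lost promoters in Ctrl against 6.58% and 42.1% in cKO. Of all promoters they touched 6.33% and 18.1% in Ctrl against 4.15% and 25.6% in cKO. H3K27me3 islands touched 5.38% and 6.92% of gained promoters in Ctrl against 8.46% and 23.8% in cKO, and 10.5% and 6.58% of lost promoters in Ctrl against 15.8% and 25% in cKO. Of all promoters they touched 17.3% and 12.9% in Ctrl against 14.7% and 27% in cKO. No test was made of these shares.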
